A study of Mus musculus with 13 samples.

Results

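Gene expression in mouse melanoma cell lines that carry the NLS construct was compared with that in lines that carry the LacZ construct, in both cases without doxycycline. The comparison rests on 5 of the 13 RNA libraries of the series and was defined by the library titles. The NLS t0 group is made of cell lines 6, 7 and 16 with 1 library each, and the LacZ t0 group of cell lines 10 and 12 with 1 library each. The series is about soluble adenylyl cyclase (sAC, gene Adcy10) that doxycycline switches on in a chosen compartment of the cell. Under doxycycline the NLS lines carry the compartment label nuclear. All 5 libraries are labelled as without doxycycline and with no sAC compartment, and lacZ is a bacterial gene in common use as an inert control. Lines of the same numbers were also sampled after 48 h of doxycycline (NLS t48, LacZ t48). The 10 libraries of both labels together are used to ask whether a difference between the constructs was the same at both. The label for the compartment of the LacZ t48 libraries reads nuclear, which their titles contradict. They are treated as LacZ here.

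No cell line number occurs under both constructs. The construct and the identity of the line therefore cannot be told apart, and a difference below is a difference between these 3 lines and those 2 lines. Whether each line is 1 clone, which tumour it came from, what mutations it carries and which promoter drives the construct are not stated in these sources.

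As background, cyclic AMP is made by membrane-bound adenylyl cyclases, which answer to hormone receptors, and by sAC, which answers to bicarbonate and calcium. It activates protein kinase A (PKA), which phosphorylates the transcription factor CREB and, through the Hippo kinases, can restrain the co-activators YAP and TAZ. In melanocytes cyclic AMP drives Mitf and pigment synthesis. Melanoma cells can lose that programme and take on mesenchymal features such as collagen production.

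The 5 libraries held 18512887 to 22584628 estimated reads each. Levels are given as CPM, counts scaled to a common library size with TMM factors, and folds are NLS over LacZ. Genes were tested when they reached 1 CPM in at least 2 of the 5 libraries, and were called when the adjusted p of edgeR's quasi-likelihood test, with Benjamini-Hochberg adjustment over all tested genes, was under 0.05. Every adjusted p below is from that test. Libraries differed more between the constructs than within them. Over the tested genes the root mean square log2 difference was 0.241 to 0.317 between NLS lines and 0.225 between the LacZ lines, against 0.649 to 0.693 between an NLS and a LacZ line. Between 69 and 136 genes were 2-fold or more apart in a pair of NLS lines and 46 in the LacZ pair, against 949 to 1084 in a mixed pair.

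Pigment genes were low in both groups, although the lines are labelled melanoma. Mitf, the master regulator of melanocytes, lay at 3.44, 4.25 and 4.21 CPM in NLS lines 6, 7 and 16, against 3.73 and 3.09 CPM in LacZ lines 10 and 12. Tyr, which encodes tyrosinase, was between 0.307 and 0.532 CPM in the NLS lines and at 0.270 and 0.2 CPM in the LacZ lines. Sox10 and Mlana had at most 0.0499 CPM in any of the 5 libraries. Of 18 pigment-lineage genes 4 were tested and 4 had no read at all. The 1 that differed was Rab27a, which moves melanosomes to the cell edge, at 0.447, 0.569 and 0.339 CPM in the NLS lines and 2.97 and 3.69 CPM in the LacZ lines (adjusted p = 0.000118). Both groups made much collagen, with Col1a1 at 3665 to 5039 CPM in the NLS lines and 2552 and 2766 CPM in the LacZ lines.

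Leukocyte and endothelial markers were low. Ptprc, the pan-leukocyte gene, had no read in any of the 5 libraries, and Cdh5, of endothelium, reached 0.0499 CPM. The 12 leukocyte markers summed to 12.1 to 13.2 CPM in the NLS lines and 7.83 and 8.75 CPM in the LacZ lines, and 4 of them had no read in any of these libraries. Cd68, of macrophage lysosomes, made most of that sum and was higher (11.4, 12.7 and 11.9 CPM in the NLS lines, 6.53 and 5.64 CPM in the LacZ lines, adjusted p = 0.000609). Laptm5, the other tested leukocyte marker, was lower, with 0.0447 and 0.0438 CPM in NLS lines 6 and 7, no read in line 16, and 1.57 and 1.60 CPM in the LacZ lines (adjusted p = 8.52e-05). Pecam1, of endothelium, was at 2.91, 2.10 and 3.97 CPM in the NLS lines and 2.43 and 3.19 CPM in the LacZ lines and was not called (adjusted p = 0.846). Of epithelial and muscle markers, Krt18 was lower (1 NLS read in all, 2.11 and 1.60 CPM in the LacZ lines, adjusted p = 7.54e-05), as was Des (4.56, 2.98 and 4.45 CPM in the NLS lines, 32.8 and 34.2 CPM in the LacZ lines, adjusted p = 2.45e-06). Cnn1 was higher (11.9, 5.39 and 12.4 CPM in the NLS lines, 0.594 and 0.499 CPM in the LacZ lines, adjusted p = 0.00092). The muscle markers Acta2, Tagln, Actg2 and Lmod1 and the epithelial marker Krt10 were tested and not called. The 9 muscle markers summed to 406.4 to 894.7 CPM in the NLS lines and 432.4 and 539.3 CPM in the LacZ lines. The 10 fibroblast markers, which include collagen genes, summed to 6844 to 8374 CPM in the NLS lines and 5349 and 5490 CPM in the LacZ lines. Of the 5 tested, 2 were higher (Col1a1 and Pdgfra) and 1 lower (Dcn, log2 fold change -1.70, adjusted p = 0.00057). Col3a1 and Pdgfrb were not called. The 10 Schwann and neural markers summed to 255.5 to 381.1 CPM in the NLS lines and 677.4 and 728.8 CPM in the LacZ lines. Nes, which encodes the intermediate filament nestin, made most of that sum, at 311.0, 225.2 and 330.3 CPM in the NLS lines and 636.2 and 673.8 CPM in the LacZ lines (adjusted p = 0.00154). The part of these marker differences in the results below was not tested. In RNA from a whole culture, fewer cells of a kind and less RNA per cell cannot be told apart.

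Reads assigned to Adcy10 (ENSMUSG00000026567, GRCm38 chromosome 1, 165485183 to 165576774, plus strand) were already abundant without doxycycline in 2 of the 3 NLS lines. Counts on reference transcripts do not separate reads of a construct from those of the chromosomal gene, and the origin of these reads was not tested. Line 6 had 369.2 CPM (8261 reads), line 7 had 201.0 CPM (4590 reads) and line 16 had 0.677 CPM (14 reads, 95% Poisson interval 0.370 to 1.14 CPM). LacZ line 10 had 0.162 CPM (3 reads, 0.0334 to 0.473 CPM) and LacZ line 12 had 0.0998 CPM (2 reads, 0.0121 to 0.361 CPM). These intervals cover counting error only. The fitted log2 fold change was 10.46 with an SE of 4.38, and the gene did not pass the test (adjusted p = 0.163), with line 16 close to the LacZ lines. At the t48 label the same lines gave 333.5, 196.5 and 1.2 CPM, against 0.164 CPM and no read in the LacZ lines.

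Of 11801 tested genes 4740 (40.2%) were called, 2280 of them (19.3%) higher in NLS t0 and 2460 (20.8%) lower. These shares are the background for the counts of gene lists below that come from this fit of all tested genes. List counts with a library left out, with some chromosomes left out or at the t48 label have backgrounds of their own. Calls over all genes also fell without a LacZ line, as given below. A smaller list count without a LacZ line therefore need not be particular to that list. Most differences were small, and 2589 of the called genes differed by less than 1.5-fold. A difference of 2-fold or more was called in 1173 genes (9.94%), 519 higher and 654 lower, and of 10-fold or more in 222. The CPM ranges of the 3 NLS and 2 LacZ libraries did not overlap in 7578 genes (64.2%). The number of calls leaned on the LacZ group, which has only 2 libraries. Without LacZ line 10 it was 2580 and without LacZ line 12 it was 2851, and the count at 2-fold or more was then 1019 and 1080. With 1 LacZ library the spread is assumed to be that of the NLS lines.

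The largest differences were in genes read in all lines of one construct with next to no read in the other. In 17 called genes no LacZ t0 read was found, and in 5 no NLS t0 read. By a looser measure, 28 called genes averaged at least 5 CPM in NLS t0 and under 0.5 CPM in LacZ t0, and 29 showed the reverse. Genes with predicted-gene, clone or pseudogene names were left out of these 4 counts. Folds against a group with no read are given as lower bounds, computed against a floor of 3 reads per library, which covers counting error only.

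Several secreted signals were read in all 3 NLS lines with no or next to no LacZ read. Bmp4, a bone morphogenetic protein, had 14.1, 16.2 and 11.4 CPM in NLS lines 6, 7 and 16 and no read in either LacZ line, which makes it at least 89.1-fold higher (adjusted p = 3.42e-06). Wnt5a, a non-canonical Wnt ligand linked to invasive melanoma, had 11.9, 18.4 and 9.29 CPM and no LacZ read, at least 84.6-fold higher (adjusted p = 0.000531). Ereg, the epiregulin ligand of the EGF receptor, had 9.21, 12.3 and 6.53 CPM, at least 59.8-fold higher (adjusted p = 8.62e-05). A second bone morphogenetic protein, Bmp6, had 6.53, 5.56 and 7.35 CPM in the NLS lines against no read and 0.0998 CPM in the LacZ lines. The pooled ratio of Bmp6 was 124, with a 95% counting interval of 34.2 to 1030. Nkd1, an inhibitor that Wnt signalling induces, had 4.47, 4.60 and 4.06 CPM and no LacZ read, at least 28.1-fold higher (adjusted p = 1.29e-05).

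Calcium channel and matrix genes showed the same pattern. Cacna1c, which encodes a pore subunit of L-type calcium channels, had 11, 12.1 and 11.8 CPM in the NLS lines and no LacZ read (at least 74.7-fold higher, adjusted p = 1.40e-06), and Cacna1a, the pore subunit of P/Q-type channels, had 4.25, 2.54 and 5.47 CPM and no LacZ read (at least 26.2-fold, adjusted p = 0.000188). Fndc1, a fibronectin type III domain gene, was at 14.2, 14.3 and 14.5 CPM in the NLS lines with no LacZ read (at least 91.8-fold, adjusted p = 7.58e-07). Col4a1 and Col4a2 encode the basement membrane collagen IV chains that assemble together. Col4a1 had 76.2, 69.6 and 79.2 CPM in the NLS lines and 0.162 and 0.2 CPM in the LacZ lines, a log2 fold change of 8.64 (SE 0.18, adjusted p = 2.30e-08). Col4a2 had 139.2, 111.8 and 132.4 CPM in the NLS lines and 0.324 and 0.399 CPM in the LacZ lines, a log2 fold change of 8.44 (SE 0.20, adjusted p = 3.14e-08). These neighbours on chromosome 8 are transcribed head to head, with RefSeq starts at 11312826 on the minus strand and 11312805 on the plus strand in GRCm38.p6, 21 bases apart.

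Of the remaining large increases, Nsg1, a protein of neuronal endosomes, reached 76.6, 77.5 and 72.1 CPM in the NLS lines and 0.0540 and 0.0499 CPM in the LacZ lines, 1 read each (pooled ratio 1455, 95% counting interval 402.6 to 12020, adjusted p = 1.51e-08). Ctsc, which encodes the lysosomal protease cathepsin C, had 8.80, 4.42 and 7.59 CPM and no LacZ read (at least 44.5-fold, adjusted p = 0.000135), and Pnma2 had 4.65, 5.25 and 5.37 CPM and no LacZ read (at least 32.6-fold, adjusted p = 9.54e-06). Samd5 was at 48.9, 75 and 48 CPM in the NLS lines and 0.324 and 0.599 CPM in the LacZ lines. Ehd3, of endosome recycling, was at 15.3, 8.67 and 14.3 CPM in the NLS lines and 0.162 and 0.0499 CPM in the LacZ lines. The groups overlapped in none of these 15 genes, which their choice required.

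The 15 largest decreases include 4 adhesion or guidance genes. Cadm1, an immunoglobulin-type adhesion molecule, had 2 reads in all 3 NLS lines together (0.0894 CPM in line 6 and none in lines 7 and 16), against 78.7 and 81.7 CPM in the LacZ lines. Its pooled LacZ over NLS ratio was 2645, with a counting interval of 731.5 to 21850 (adjusted p = 3.14e-08). Cdh18 and Cdh6, which encode classical cadherins of type II, had at most 0.0438 and 0.131 CPM in an NLS line. In the LacZ lines Cdh18 was at 8.58 and 8.18 CPM and Cdh6 at 4.48 and 5.79 CPM (adjusted p = 2.08e-06 for Cdh18 and 5.17e-05 for Cdh6). Their pooled LacZ over NLS ratios had counting intervals of 98.3 to 21860 and 38.2 to 554.2, in that order. Plxna4, a semaphorin receptor, had at most 0.0447 CPM in an NLS line and 5.08 and 5.44 CPM in the LacZ lines (interval of the LacZ over NLS ratio 47.4 to 1442, adjusted p = 4.62e-06).

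Genes of other roles were also near 0 in the NLS lines. Armcx2, an armadillo-repeat gene on the X chromosome, was at 0.0447, 0.219 and 0.0968 CPM in NLS lines 6, 7 and 16 and at 109 and 110 CPM in the LacZ lines, a log2 fold change of -9.74 (SE 0.19, adjusted p = 1.51e-08). Gpr149, an orphan receptor, had 2 NLS reads in all and 40.1 and 34.3 CPM in the LacZ lines (interval of the LacZ over NLS ratio 337.5 to 10100, adjusted p = 1.89e-07). Prelid2, a gene of the PRELI family of mitochondrial lipid carriers, had 1 NLS read in all and 30.5 and 33.3 CPM in the LacZ lines (interval 377.4 to 83270, adjusted p = 6.55e-08). Zfp532, a zinc-finger gene, had no read, 0.0876 and 0.145 CPM in the NLS lines and 22.3 and 20.2 CPM in the LacZ lines (adjusted p = 6.86e-07). Arap3, a regulator of small GTPases, had 1 NLS read and 13.8 and 14.4 CPM in the LacZ lines (interval 165.8 to 36710, adjusted p = 5.53e-07). Zdhhc15, Nol4, Hs6st2, Soga3, Grid1 and Trim68 complete the 15 largest decreases, each with 1 to 3 NLS reads in all and 4.32 to 13.3 CPM in a LacZ line. The lowest lower bound of their LacZ over NLS ratios was 44.3, for Trim68, and the highest 148.6, for Zdhhc15. Among the 15 largest decreases, Prelid2, Zfp532, Arap3 and Nol4 lie on chromosome 18, which is described below. Arap3 starts between 30 and 40 Mb there.

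**Figure D1:**
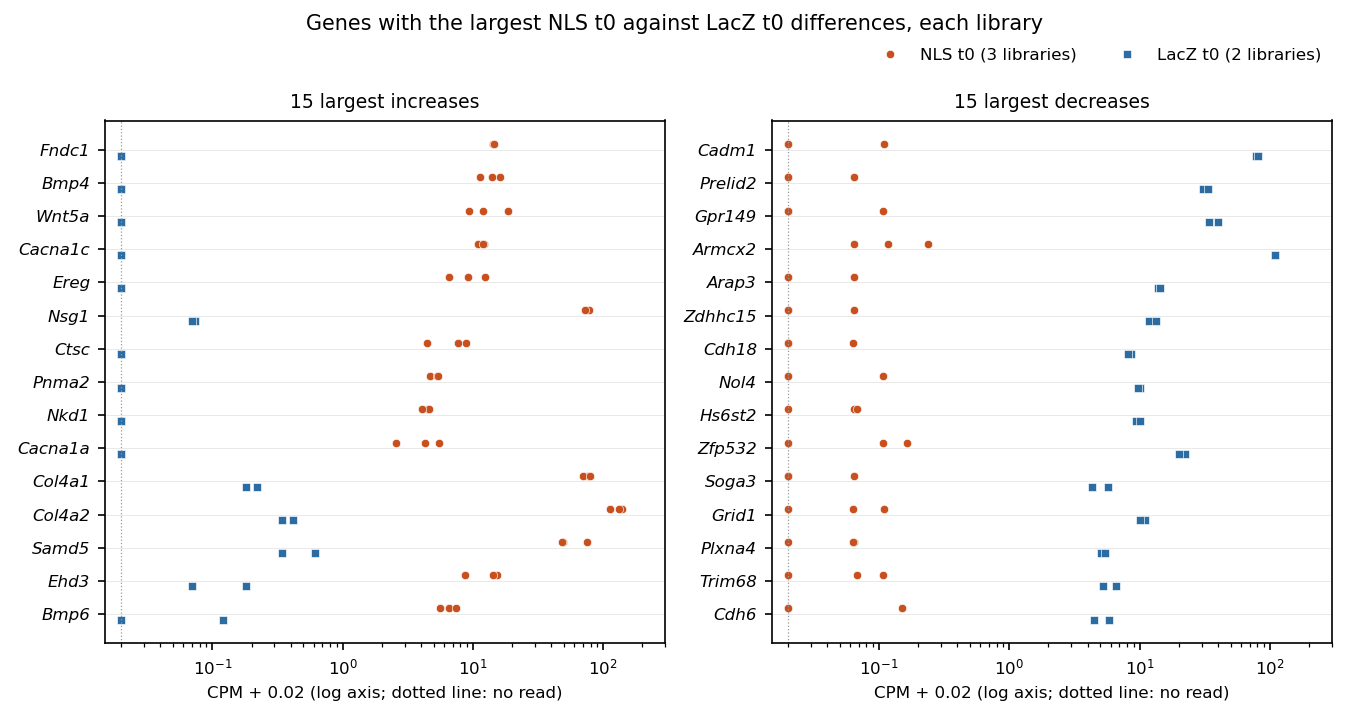
CPM plus 0.02 (log axis) of the 15 largest called increases (left) and 15 largest called decreases (right), chosen for size. Circles are the 3 NLS t0 libraries and squares the 2 LacZ t0 libraries, and the dotted line marks no read. Circles and squares lie apart for every gene shown, for example 69.6 to 79.2 CPM against 0.162 and 0.2 CPM for Col4a1.

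Among abundant transcripts the differences were smaller but involved more RNA. Sparc, a collagen-binding matrix protein, was at 6386, 6320 and 6204 CPM in NLS lines 6, 7 and 16 and 4126 and 4381 CPM in the LacZ lines (log2 fold change 0.57, SE 0.08, adjusted p = 0.0005). Tuba1b, an alpha-tubulin, was at 4185, 3699 and 4072 CPM in the NLS lines and 2814 and 2724 CPM in the LacZ lines (log2 fold change 0.53, SE 0.08, adjusted p = 0.00116). In the other direction, Hspa9, the mitochondrial HSP70 chaperone, was at 1288, 1281 and 1300 CPM in the NLS lines and 3306 and 3869 CPM in the LacZ lines (log2 fold change -1.48, SE 0.08, adjusted p = 2.88e-06). Bgn, the proteoglycan biglycan, was at 2814, 2632 and 2876 CPM in the NLS lines and 4412 and 4931 CPM in the LacZ lines (log2 fold change -0.75, SE 0.08, adjusted p = 0.000145). Ftl1, the ferritin light chain, was at 2368, 2009 and 2242 CPM in the NLS lines and 3654 and 3500 CPM in the LacZ lines (log2 fold change -0.70, SE 0.09, adjusted p = 0.0003).

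Expression also differed chromosome by chromosome, a pattern noticed after the values were seen and given here as a description. Chromosome 18 stood lowest. Of its 319 tested genes 212 (66.5%) were called lower in NLS t0, against 20.8% of all tested genes. Chromosomes 8 and 3 followed with 41.3% and 39.0% called lower. Calls of higher expression were frequent on chromosome 14 (47.9%), chromosome 11 (42.8%) and chromosome 15 (40.9%), against 19.3% of all tested genes.

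The shift was similar in each NLS line. Over the 10028 genes with a mean of at least 5 CPM, the median log2(CPM + 0.5) difference of chromosome 18 from the LacZ mean was -0.60, -0.55 and -0.58 for NLS lines 6, 7 and 16, a median fold of 0.67 for the group. Chromosomes 3 and 8 had group medians of -0.21 and -0.24, and chromosomes 11, 14 and 15 had 0.24, 0.27 and 0.19. The other 14 chromosomes lay between -0.04 and 0.08, and LacZ line 12 over LacZ line 10 lay between -0.04 and 0.04 on all 20 chromosomes compared. DNA copy number was not measured in the data used here.

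**Figure D2:**
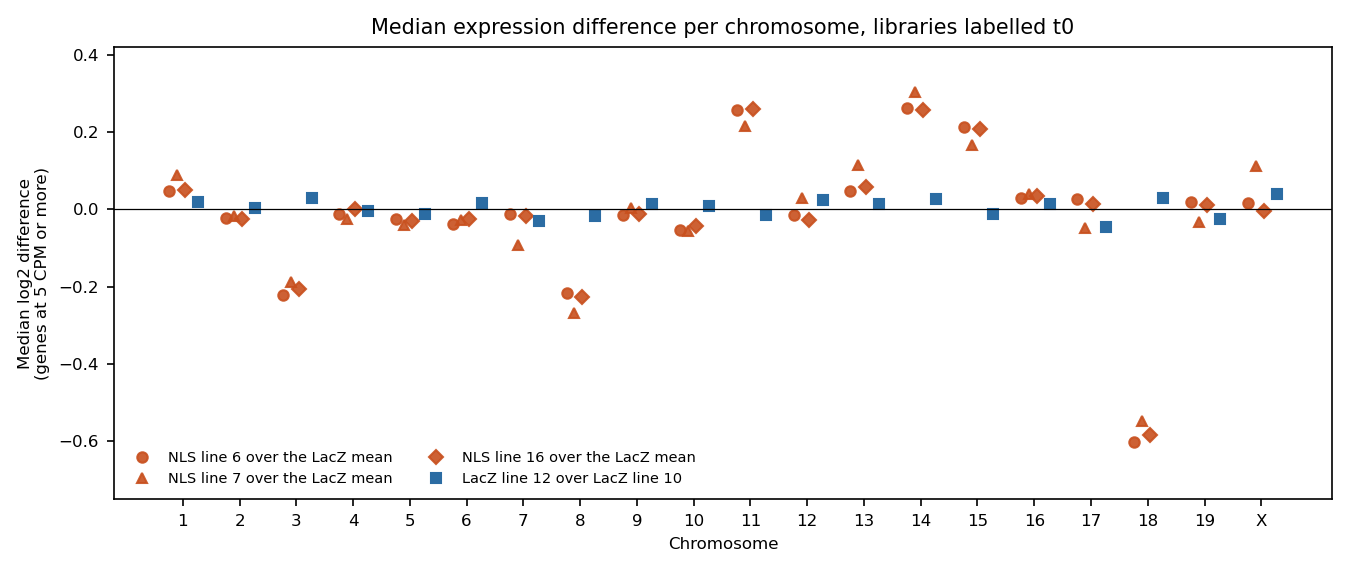
Median log2 difference per chromosome for genes at 5 CPM or more, for each NLS t0 library over the mean of the LacZ t0 libraries (circle, triangle, diamond) and for LacZ line 12 over LacZ line 10 (square). The 3 NLS lines sit together below 0 on chromosomes 3, 8 and 18 and above 0 on chromosomes 11, 14 and 15, with chromosome 18 at -0.55 to -0.60.

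Chromosome 18 was not lower throughout. Its first 10-Mb stretch had a median of 0.20 (18 genes) and the stretch from 30 to 40 Mb a median of -1.29 (72 genes). Of the 96 tested genes that start in that stretch, 77 were called lower and 10 higher. The median log2 fold change of the 96 genes was -1.35, and it was -1.30 without the 18 protocadherin genes, taken by their Pcdh symbols. Clustered protocadherins share exons, and Salmon may divide their reads between them. Whether all 18 belong to the clusters was not checked. The lower genes there include Hspa9, above, and genes of unrelated roles. Ctnna1, which encodes alpha-catenin of adherens junctions, was at 401.9, 410.2 and 412.5 CPM in the NLS lines and 1067 and 1119 CPM in the LacZ lines (log2 fold change -1.42, SE 0.06, adjusted p = 1.04e-06). Apc, the tumour suppressor that limits Wnt signalling, was at 91.0, 98.1 and 89.8 CPM in the NLS lines and 256.4 and 266.2 CPM in the LacZ lines (log2 fold change -1.49, SE 0.07, adjusted p = 1.39e-06). Hdac3, a histone deacetylase, was at 89.5, 86.2 and 89.1 CPM in the NLS lines and 232.4 and 241.8 CPM in the LacZ lines (log2 fold change -1.43, SE 0.07, adjusted p = 1.26e-06). These genes of the stretch were picked after their values were seen.

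Leaving out the genes of chromosomes 3, 8, 11, 14, 15 and 18, a choice made after seeing the data, left 8697 genes, of which 2706 (31.1%) were called, 14.8% higher, 16.3% lower and 8.92% at 2-fold or more. Counts of gene lists outside those 6 chromosomes are given below for many of the lists they change. Such a count is out of fewer tested members than the full count of its list. The number of members tested outside the 6 chromosomes is not given. A smaller count there is therefore no measure of a smaller share of the list. The part of the chromosomal differences in any list was not tested.

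Machinery of cyclic AMP differed in parts. Of 5 tested adenylyl cyclases 3 were higher and 1 lower. Adcy3 was at 50.2, 47.2 and 49.4 CPM in the NLS lines and 33.9 and 32.7 CPM in the LacZ lines (log2 fold change 0.56, SE 0.08, adjusted p = 0.000778). Adcy7 was at 121, 117 and 122 CPM in the NLS lines and 210 and 203 CPM in the LacZ lines (log2 fold change -0.78, SE 0.07, adjusted p = 3.56e-05). Of 11 tested cyclic AMP effectors and Gs signalling genes 3 were higher and 4 lower. Adora2b, a Gs-coupled adenosine receptor, was at 5.81, 4.86 and 7.59 CPM in the NLS lines and 1.08 and 0.948 CPM in the LacZ lines (log2 fold change 2.58, adjusted p = 0.000133), while Gnas, the Gs alpha subunit, was at 742.5, 671.9 and 758.2 CPM in the NLS lines and 1013 and 981.6 CPM in the LacZ lines (log2 fold change -0.46, adjusted p = 0.00139). Of 14 tested PKA subunits, inhibitors and anchors 2 were higher and 4 lower, among them Prkar2b, a regulatory subunit, at 54.3, 65.8 and 52.3 CPM in the NLS lines and 100 and 102 CPM in the LacZ lines (adjusted p = 0.000322). Of 8 tested phosphodiesterases, which break cyclic AMP down, 1 was higher and 3 lower. Pde7a was at 20.6, 22.3 and 20.2 CPM in the NLS lines and 38.3 and 34.7 CPM in the LacZ lines (adjusted p = 0.000226). These small counts turned on single lines. Without LacZ line 10 the higher cyclases number 1 and the higher PKA genes 1, and without NLS line 6 the higher PKA genes also number 1. The lower phosphodiesterases number 1 without LacZ line 10, 1 without LacZ line 12 and 5 without NLS line 7. The single higher one missed the threshold without LacZ line 10 or NLS line 6, and 2 were higher without NLS line 16. Outside the 6 chromosomes 1 phosphodiesterase was lower, and the lower cyclase and both higher PKA genes lie on those chromosomes.

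CREB targets moved in both directions. Of 21 tested members 3 were higher and 8 lower, with a median log2 fold change of -0.31, against 0.00 over all tested genes. Among 13 tested CREB family members and coactivators 1 was higher and 3 lower, with 1 lower and none higher outside the 6 chromosomes, 1 lower without LacZ line 10, and 2 higher without NLS line 7 or NLS line 16. Dusp1, a phosphatase of MAP kinases, was at 58.9, 35.6 and 48 CPM in the NLS lines and 18 and 19.7 CPM in the LacZ lines (log2 fold change 1.33, SE 0.22, adjusted p = 0.00356). Btg2, an inhibitor of proliferation, was at 4.29, 4.16 and 5.56 CPM in the NLS lines and 12.9 and 14.2 CPM in the LacZ lines (log2 fold change -1.54, SE 0.16, adjusted p = 0.000116). The classical targets Nr4a1 and Crem were not called, with Nr4a1 at 13.7, 3.63 and 4.26 CPM in the NLS lines and 13 and 11.5 CPM in the LacZ lines, and Crem at 2.15, 1.88 and 1.5 CPM against 2.54 and 2.64 CPM (adjusted p = 0.454 for Nr4a1 and 0.149 for Crem). Without LacZ line 10 the lower CREB targets number 5, and 5 lie outside the 6 chromosomes.

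The full CRE, the CREB site TGACGTCA, which reads the same on both strands, was looked for in RefSeq promoter windows of GRCm38.p6 that run from 250 bases before to 50 after each gene's start. It was found in 549 of 27025 genes with a window (2.03%). Among the CREB targets it was found in 1 of 3 higher, 1 of 5 lower and 1 of 9 uncalled members with a window. Dusp1, higher in the NLS lines, and Btg2, lower, are shown because both hold the same site (capitals) and moved in opposite directions. The stretches are the 180 bases before the start, at chr17:26508473-26508652 (minus strand) for Dusp1 and chr1:134079156-134079335 (minus strand) for Btg2, with the site beginning 143 and 166 bases before the start.
Dusp1: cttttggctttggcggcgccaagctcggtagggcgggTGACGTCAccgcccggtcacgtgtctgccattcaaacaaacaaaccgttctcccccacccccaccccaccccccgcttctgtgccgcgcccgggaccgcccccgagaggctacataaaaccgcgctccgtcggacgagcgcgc
Btg2: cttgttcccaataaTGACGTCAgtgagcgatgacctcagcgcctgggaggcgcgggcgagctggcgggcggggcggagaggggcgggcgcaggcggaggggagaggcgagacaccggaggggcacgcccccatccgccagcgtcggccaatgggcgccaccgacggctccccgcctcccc

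Of 22 tested YAP and TAZ targets 5 were higher and 5 lower (22.7% each), near the shares over all tested genes, with a median log2 fold change of 0.16. Yap1 itself was at 87.3, 91.4 and 87.2 CPM in the NLS lines and 89.0 and 87.1 CPM in the LacZ lines (adjusted p = 0.929). Ccn1 and Ccn2, common reporters of YAP activity, were not called. Ccn1 was at 164, 180 and 245 CPM in the NLS lines and 225 and 230 CPM in the LacZ lines, and Ccn2 at 187, 118 and 270 CPM in the NLS lines and 393 and 434 CPM in the LacZ lines (adjusted p = 0.363 for Ccn1 and 0.106 for Ccn2). Within the Hippo pathway, 2 of 20 tested members were higher and 6 lower. Tead2, a DNA-binding partner of YAP, was at 7.06, 8.32 and 7.45 CPM in the NLS lines and 49.7 and 49.3 CPM in the LacZ lines (log2 fold change -2.70, SE 0.10, adjusted p = 3.56e-07). The count of lower Hippo members was 3 without LacZ line 10, 2 without LacZ line 12, and 2 outside the 6 chromosomes, and 1 was higher without LacZ line 10 or outside the 6 chromosomes. The counts of YAP and TAZ targets also turn on single lines, with 2 higher without LacZ line 10 and 9 without NLS line 7, and with 2 lower without LacZ line 12, 3 without NLS line 6 and 8 without NLS line 16.

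Interferon-stimulated genes were mostly lower in the NLS lines. Of 31 tested members 18 were lower and 5 higher, with a median log2 fold change of -0.54. The summed level of the list did overlap, at 344.2 to 433.8 CPM in the NLS lines and 398 and 412 CPM in the LacZ lines. Rsad2, the antiviral protein viperin, was at 1.70, 2.10 and 1.60 CPM in NLS lines 6, 7 and 16 and 8.91 and 8.13 CPM in the LacZ lines (log2 fold change -2.24, SE 0.19, adjusted p = 3.85e-05). Oas3, which makes the activator of RNase L, was at 1.56, 1.53 and 1.74 CPM in the NLS lines and 5.13 and 6.99 CPM in the LacZ lines (log2 fold change -1.91, SE 0.22, adjusted p = 0.000217). Oas1a, of the same family, was at 0.849, 0.482 and 0.242 CPM in the NLS lines and 4.21 and 3.34 CPM in the LacZ lines (log2 fold change -2.82, SE 0.39, adjusted p = 0.000655). Usp18, which removes ISG15 from proteins and restrains the receptor, was at 0.0894 and 0.131 CPM in NLS lines 6 and 7, without a read in line 16, and at 2.05 and 1.30 CPM in the LacZ lines (adjusted p = 0.000492). The 5 higher members include 3 guanylate-binding proteins that lie together on chromosome 3. Gbp2 was at 38, 51.9 and 41.3 CPM in the NLS lines and 16.7 CPM in both LacZ lines (log2 fold change 1.39, SE 0.14, adjusted p = 0.000112), and Gbp3 at 10.6, 14.4 and 9.14 CPM in the NLS lines and 4.64 and 4.04 CPM in the LacZ lines (log2 fold change 1.39, SE 0.22, adjusted p = 0.00116). Near-identical copies in the Oas, Ifit and Gbp families share reads, so single values are uncertain. The count of lower members depends on the library set. It was 8 without LacZ line 10, 9 without LacZ line 12, 12 without NLS line 6 and 21 without NLS line 7, and the higher count was 2 without LacZ line 10 or LacZ line 12 and 1 outside the 6 chromosomes.

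The interferon response element, searched as GAAA, any 2 bases and GAAA on both strands, lay in the promoter window of 1079 of 27025 genes (3.99%). Of the lower interferon-stimulated genes with a window 10 of 14 held it, of the higher 3 of 3 and of the uncalled 2 of 6. The element therefore occurred in members of both directions, as the following stretches of 180 bases before the start show, with matches in capitals. Overlapping matches run together. Oas3 (chr5:120777660-120777839, minus strand), Rsad2 (chr12:26456453-26456632, minus strand) and Oas1a (chr5:120907526-120907705, minus strand) were lower in the NLS lines, and Gbp2 (chr3:142620483-142620662, plus strand) and Gbp3 (chr3:142559864-142560043, plus strand) were higher. A match is a run of letters and no measure of binding.
Oas3: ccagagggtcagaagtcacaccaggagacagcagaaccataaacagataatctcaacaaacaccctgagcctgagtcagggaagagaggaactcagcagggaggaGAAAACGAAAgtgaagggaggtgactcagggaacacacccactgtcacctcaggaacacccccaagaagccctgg
Rsad2: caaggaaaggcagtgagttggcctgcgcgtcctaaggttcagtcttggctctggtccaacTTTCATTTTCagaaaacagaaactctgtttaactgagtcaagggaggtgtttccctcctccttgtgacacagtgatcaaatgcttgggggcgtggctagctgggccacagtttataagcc
Oas1a: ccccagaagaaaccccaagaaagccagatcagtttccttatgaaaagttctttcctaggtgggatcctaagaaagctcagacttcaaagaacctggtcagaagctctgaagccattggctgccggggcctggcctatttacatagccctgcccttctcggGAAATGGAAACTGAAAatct
Gbp2: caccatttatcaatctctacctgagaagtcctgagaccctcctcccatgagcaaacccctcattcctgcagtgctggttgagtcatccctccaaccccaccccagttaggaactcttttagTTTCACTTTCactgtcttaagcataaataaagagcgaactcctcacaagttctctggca
Gbp3: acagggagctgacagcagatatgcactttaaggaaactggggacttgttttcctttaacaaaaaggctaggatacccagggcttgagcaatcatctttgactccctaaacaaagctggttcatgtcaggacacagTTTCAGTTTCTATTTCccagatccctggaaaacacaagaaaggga

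Of 16 tested genes of MHC class I antigen presentation 7 were higher and 3 lower. Psmb8, an immunoproteasome subunit, was at 34.0, 35.4 and 33.1 CPM in the NLS lines and 8.37 and 8.28 CPM in the LacZ lines (log2 fold change 2.04, SE 0.10, adjusted p = 1.55e-06), and Psme2, of the proteasome activator, at 172, 155 and 162 CPM in the NLS lines and 97.6 and 102 CPM in the LacZ lines (log2 fold change 0.70, SE 0.08, adjusted p = 0.000135). Lower were B2m, the light chain, at 390, 341 and 413 CPM in the NLS lines and 559 and 645 CPM in the LacZ lines (log2 fold change -0.66, adjusted p = 0.00084), the heavy chain gene H2-D1 (log2 fold change -0.57, adjusted p = 0.000461) and Nlrc5, the transactivator of this gene class (log2 fold change -2.28, adjusted p = 0.000414). The count of higher members was 4 without LacZ line 10 and 4 outside the 6 chromosomes.

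Genes of sterol and fatty acid synthesis were mostly lower in the NLS lines. Of 27 tested members 19 were lower and 1 higher, with a median log2 fold change of -0.50. Msmo1, a sterol demethylating oxidase, was at 94.8, 99.1 and 91.3 CPM in the NLS lines and 202 and 206 CPM in the LacZ lines (log2 fold change -1.10, SE 0.07, adjusted p = 5.97e-06). Fdps, which makes farnesyl pyrophosphate, was at 165, 165 and 158 CPM in the NLS lines and 281 and 282 CPM in the LacZ lines (log2 fold change -0.79, SE 0.06, adjusted p = 2.42e-05). Mvd, which makes isopentenyl pyrophosphate, was at 19.6, 17.9 and 19.8 CPM in the NLS lines and 46.7 and 40.9 CPM in the LacZ lines (log2 fold change -1.2, SE 0.10, adjusted p = 2.52e-05). Fasn, the fatty acid synthase, had a log2 fold change of -0.71 (adjusted p = 0.000136). The exception was Cyp51, a demethylase of the same route, at 317, 349 and 297 CPM in the NLS lines and 253 and 260 CPM in the LacZ lines, whose call (adjusted p = 0.0124) was lost without LacZ line 10 (adjusted p = 0.106) and also without LacZ line 12. Leaving out 1 library at a time gave 15 to 22 lower members, and 12 lower members lie outside the 6 chromosomes.

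**Figure D3:**
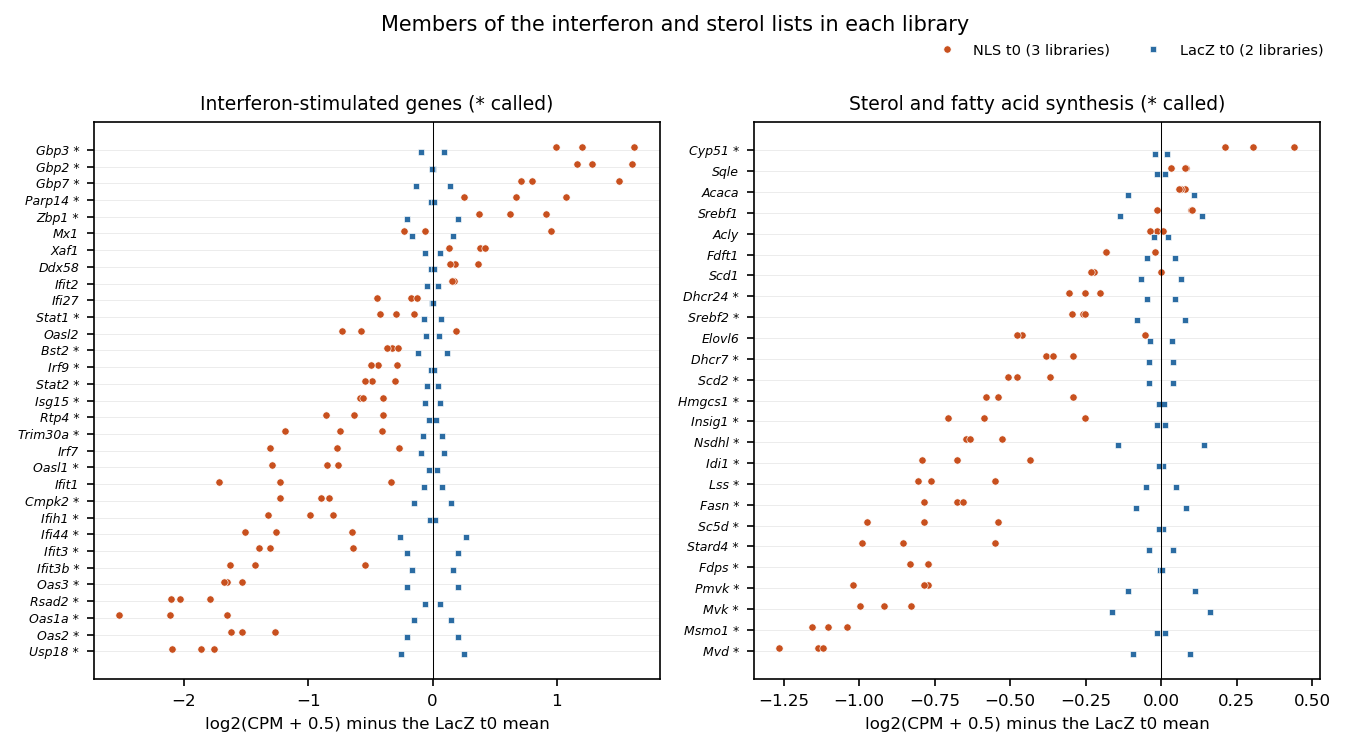
Tested members of the interferon list (31 genes, left) and 25 tested members of the sterol list (right), as log2(CPM + 0.5) minus the mean of the LacZ t0 libraries, ordered by fold change. Circles are the 3 NLS t0 libraries, squares the 2 LacZ t0 libraries, and asterisks mark called genes, 18 lower and 5 higher on the left and 17 lower and 1 higher on the right.

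Genes that report ERK output were mostly lower. Of 19 tested members 11 were lower and 2 higher, with a median log2 fold change of -0.67. The summed level of the list did overlap, at 2381 to 2864 CPM in the NLS lines and 2487 and 2520 CPM in the LacZ lines. Spry4, a feedback inhibitor, was at 2.37, 2.06 and 1.35 CPM in the NLS lines and 21.4 and 20 CPM in the LacZ lines (log2 fold change -3.42, SE 0.19, adjusted p = 3.03e-06). Etv4, an ETS factor induced by ERK, was at 13.7, 16.6 and 14.6 CPM in the NLS lines and 47.6 and 43.7 CPM in the LacZ lines (log2 fold change -1.60, SE 0.10, adjusted p = 7.13e-06). Egr1, an immediate early factor, was at 53.9, 61.7 and 63.5 CPM in the NLS lines and 136 and 135 CPM in the LacZ lines (log2 fold change -1.18, SE 0.09, adjusted p = 1.31e-05). Dusp6, a phosphatase of ERK, had a log2 fold change of -1.31 (SE 0.13, adjusted p = 8.94e-05). Spry4 and Egr1 both start between 30 and 40 Mb on chromosome 18. Outside the 6 chromosomes 6 members were called lower and 1 higher, and without LacZ line 12 the lower count was 7. The 2 higher members were Spry1 and Emp1, and neither was called without LacZ line 10 (adjusted p = 0.141 for Spry1 and 0.171 for Emp1). Without LacZ line 12 Emp1 was not called (0.141), and without NLS line 6 Spry1 was not (0.0513).

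Receptors and ligands upstream of ERK differed in both directions, with 7 of 21 tested members higher and 7 lower. Met, the receptor of hepatocyte growth factor, was at 187.9, 263.7 and 205.1 CPM in the NLS lines and 951.8 and 943.7 CPM in the LacZ lines (log2 fold change -2.11, SE 0.14, adjusted p = 3.22e-05). Egfr, the receptor of EGF, was at 119, 145 and 126 CPM in the NLS lines and 60.0 and 58.0 CPM in the LacZ lines (log2 fold change 1.14, SE 0.10, adjusted p = 3.97e-05). Pdgfra, a platelet-derived growth factor receptor that also marks fibroblasts, was at 172.0, 257.1 and 141.7 CPM in the NLS lines and 12.6 and 14.5 CPM in the LacZ lines (log2 fold change 3.81, SE 0.35, adjusted p = 0.00163). The lower ligands include Hbegf (log2 fold change -0.95, adjusted p = 0.000824) and Fgf2 (log2 fold change -0.77, adjusted p = 0.000448). Hbegf starts between 30 and 40 Mb on chromosome 18. Without LacZ line 12 the lower members of this list number 4, and 4 lower and 4 higher members lie outside the 6 chromosomes.

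Wnt pathway genes were more often higher. Of 21 tested members 10 were higher and 5 lower, with a median log2 fold change of 0.75. Nkd2, an inhibitor that Wnt signalling induces, was at 27, 30 and 26.6 CPM in the NLS lines and 1.35 and 2.74 CPM in the LacZ lines (log2 fold change 3.75, SE 0.23, adjusted p = 7.88e-06), and Notum, a secreted esterase that inactivates Wnt ligands, was at 48.7, 50.9 and 36.6 CPM in the NLS lines and 5.08 and 6.89 CPM in the LacZ lines (log2 fold change 2.92, SE 0.20, adjusted p = 2.42e-05). Axin2, a scaffold of the beta-catenin destruction complex, was at 23, 12.2 and 20.4 CPM in the NLS lines and 4.05 and 5.19 CPM in the LacZ lines (log2 fold change 2, SE 0.31, adjusted p = 0.00294). The ligand Wnt9a was at 79.2, 70.7 and 65.3 CPM in the NLS lines and 17.9 and 18.7 CPM in the LacZ lines (log2 fold change 1.97, SE 0.11, adjusted p = 2.46e-06). Lef1, a nuclear partner of beta-catenin, went the other way, at 1.97, 1.36 and 2.08 CPM in the NLS lines and 11 and 10.0 CPM in the LacZ lines (log2 fold change -2.54, SE 0.21, adjusted p = 2.52e-05), as did the receptor Lgr6 (log2 fold change -1.52, adjusted p = 3.70e-05). Leaving out 1 library gave 10 to 13 higher members. With the 6 chromosomes left out, 4 were higher and 2 lower.

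TGF-beta and BMP genes were evenly divided, with 8 of 22 tested members higher and 7 lower. Tgfbi, a matrix protein that TGF-beta induces, was at 448, 418 and 418 CPM in the NLS lines and 242 and 236 CPM in the LacZ lines (log2 fold change 0.84, SE 0.07, adjusted p = 2.74e-05). Tgfb1 was at 29.2, 27.1 and 31.1 CPM in the NLS lines and 50.5 and 54.2 CPM in the LacZ lines (log2 fold change -0.84, SE 0.09, adjusted p = 0.000124). Id1, a target of BMP signalling, was lower (log2 fold change -0.79, SE 0.12, adjusted p = 0.000835) in the lines that expressed Bmp4 and Bmp6. The higher members number 5 without LacZ line 10 or LacZ line 12, and without LacZ line 12 the lower count was 4.

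Matrix genes differed in both directions. Of 16 tested collagens 8 were higher and 4 lower, with a median log2 fold change of 0.29. Besides Col4a1 and Col4a2, Col6a2 of the beaded filaments was at 151, 165 and 152 CPM in the NLS lines and 67.9 and 67.2 CPM in the LacZ lines (log2 fold change 1.21, SE 0.08, adjusted p = 6.62e-06). Col18a1, a basement membrane collagen and the source of endostatin, was at 96.4, 116 and 107 CPM in the NLS lines and 680 and 588 CPM in the LacZ lines (log2 fold change -2.57, SE 0.10, adjusted p = 3.56e-07). Among other matrix genes 8 of 30 tested were higher and 13 lower, and laminin alpha chains parted. Lama4 was at 191, 209 and 192 CPM in the NLS lines and 40.5 and 43.3 CPM in the LacZ lines (log2 fold change 2.24, SE 0.08, adjusted p = 3.56e-07). Lama5 was at 13.1, 10.8 and 16.4 CPM in the NLS lines and 141 and 138 CPM in the LacZ lines (log2 fold change -3.38, SE 0.15, adjusted p = 2.39e-06). Lama2 was also lower (log2 fold change -4.04, SE 0.22, adjusted p = 2.77e-06). Thbs2, a thrombospondin, was at 408, 390 and 402 CPM in the NLS lines and 148 and 140 CPM in the LacZ lines (log2 fold change 1.48, SE 0.07, adjusted p = 1.33e-06). Without LacZ line 10 the counts were 5 higher and 2 lower collagens and 8 lower other matrix genes, the last also without LacZ line 12. Outside the 6 chromosomes 5 collagens were called higher and, of other matrix genes, 4 higher.

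Adhesion receptors were more often lower, with 16 of 25 tested members lower and 4 higher and a median log2 fold change of -0.46. Integrin alpha chains that bind laminins (Itga6, Itga7) or collagens (Itga1, Itga11) differed in both directions. Itga7 was at 14.2, 11.5 and 15.8 CPM in the NLS lines and 74.2 and 72.6 CPM in the LacZ lines (log2 fold change -2.41, SE 0.12, adjusted p = 1.81e-06), and Itga11 at 0.804, 1.49 and 0.774 CPM in the NLS lines and 14.5 and 14.6 CPM in the LacZ lines (log2 fold change -3.81, SE 0.24, adjusted p = 6.62e-06). Itga6 was at 88.1, 119 and 86.7 CPM in the NLS lines and 39.7 and 45.0 CPM in the LacZ lines (log2 fold change 1.21, SE 0.16, adjusted p = 0.00093), and Itga1 at 3.22, 4.99 and 3.05 CPM in the NLS lines and 0.270 and 0.349 CPM in the LacZ lines (log2 fold change 3.57, SE 0.38, adjusted p = 0.000135). With the 6 chromosomes left out, 10 members were lower and 2 higher.

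Axon guidance genes, which steer cell migration outside the nervous system as well, had 13 of 27 tested members lower and 7 higher, with a median log2 fold change of -0.33. The Slit receptor Robo1 was at 17.7, 19.5 and 16.6 CPM in the NLS lines and 1.73 and 2.25 CPM in the LacZ lines (log2 fold change 3.17, SE 0.17, adjusted p = 2.27e-06). Robo2 was at 18.9, 15.5 and 18.8 CPM in the NLS lines and 3.08 and 3.69 CPM in the LacZ lines (log2 fold change 2.39, SE 0.16, adjusted p = 7.88e-06), and the ligand Ntn1 at 404, 394 and 385 CPM in the NLS lines and 216 and 210 CPM in the LacZ lines (log2 fold change 0.89, SE 0.07, adjusted p = 1.48e-05). Besides Plxna4, Plxna2 was at 19.6, 14.8 and 16.9 CPM in the NLS lines and 46.3 and 47.2 CPM in the LacZ lines (log2 fold change -1.45, SE 0.12, adjusted p = 2.35e-05) and Plxna1 had a log2 fold change of -0.83 (SE 0.07, adjusted p = 2.73e-05). The higher members number 4 outside the 6 chromosomes.

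**Figure D4:**
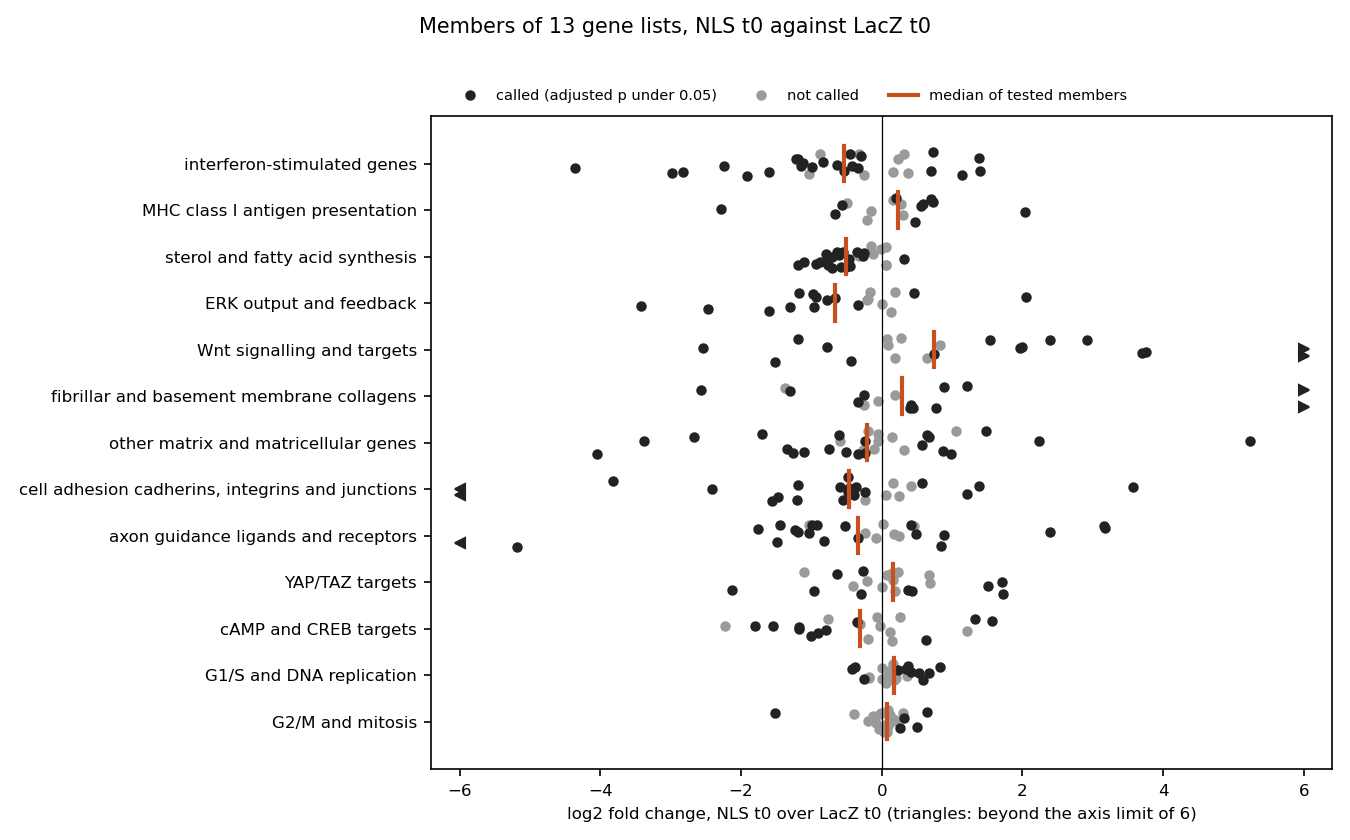
Fold change (log2, NLS t0 over LacZ t0) of each tested member of 13 gene lists. Dark points are called genes, grey points are not called, triangles lie beyond the axis, and the orange bar is the median of tested members, -0.67 for ERK output, -0.54 for interferon-stimulated genes, -0.50 for sterol synthesis and 0.75 for Wnt genes, against 0.00 over all tested genes.

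In the 2 proliferation lists the tested genes differed by less than 2-fold, apart from Kif20a. Of 25 tested G1/S and DNA replication genes 8 were higher and 3 lower, with a median log2 fold change of 0.17. Rrm2, a ribonucleotide reductase subunit, was at 175, 190 and 173 CPM in the NLS lines and 107 and 96 CPM in the LacZ lines (log2 fold change 0.82, SE 0.08, adjusted p = 8.42e-05). Of 22 tested G2/M genes 4 were higher and 1 lower. The lower one was Kif20a, a kinesin of cytokinesis, which starts in the lowest stretch of chromosome 18 and was at 206, 241 and 209 CPM in the NLS lines and 633 and 613 CPM in the LacZ lines (log2 fold change -1.51, SE 0.08, adjusted p = 2.45e-06). Of 20 tested CDK inhibitors and p53 targets 3 were higher and 5 lower. Fas, the death receptor, was at 3.58, 3.06 and 4.06 CPM in the NLS lines and 0.162 and 0.499 CPM in the LacZ lines (log2 fold change 3.39, SE 0.40, adjusted p = 0.000232), and Cdkn1a, the CDK inhibitor p21, was not called (38.9, 22.3 and 44.5 CPM in the NLS lines, 41.7 and 55.1 CPM in the LacZ lines, adjusted p = 0.348). The lower G1/S members number 1 without NLS line 6, and without LacZ line 10 all 3 missed the threshold. Without LacZ line 12 the higher G2/M members number 1, and without NLS line 7 the lower ones 3. Outside the 6 chromosomes 1 G1/S member was lower, and 1 G2/M and 1 p53-list member were higher.

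Of 24 tested glycolysis and hypoxia genes 4 were higher and 7 lower. Ndufa4l2, which hypoxia induces and which lowers respiratory complex activity, was at 82.6, 63.7 and 90.5 CPM in the NLS lines and 2 and 1.65 CPM in the LacZ lines (log2 fold change 5.44, SE 0.22, adjusted p = 1.55e-06), and Egln3, an oxygen-sensing prolyl hydroxylase, was at 52.8, 59.1 and 55.1 CPM in the NLS lines and 3.35 and 2.54 CPM in the LacZ lines (log2 fold change 4.24, SE 0.14, adjusted p = 1.51e-07). Car9, a carbonic anhydrase that hypoxia also induces, was at 0.894, 1.27 and 0.629 CPM in the NLS lines and 23.3 and 17.4 CPM in the LacZ lines (log2 fold change -4.43, SE 0.24, adjusted p = 3.03e-06). Carbonic anhydrases form bicarbonate, which activates sAC, and 5 of 14 tested members of the carbonic anhydrase and bicarbonate transporter list were higher and 3 lower, with 3 higher without LacZ line 10 and 3 outside the 6 chromosomes. Of 24 tested nuclear respiratory chain genes 8 were lower, led by Ndufa2 of chromosome 18 (25.3, 19 and 23.9 CPM in the NLS lines, 87.2 and 74.8 CPM in the LacZ lines, log2 fold change -1.83, adjusted p = 1.31e-05). Outside the 6 chromosomes 3 respiratory chain genes were lower, and 5 were without LacZ line 10 or LacZ line 12. Without LacZ line 10 the hypoxia list had 2 higher and 3 lower members, without LacZ line 12 it had 4 lower, and without NLS line 6 it had 2 higher.

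The lines of the same numbers were compared again after 48 h of doxycycline, to ask which of these differences were present at both labels. Of 11938 genes tested there 5697 (47.7%) were called, 2864 (24%) higher in NLS t48 and 2833 (23.7%) lower. The same direction was called at both labels for 2614 genes, which is 55.2% of the t0 calls and 45.9% of the t48 calls. The direction was opposite for 288 genes, 6.08% of the t0 calls and 5.06% of the t48 calls. By their numbers the cell lines are the same at both labels. The t48 values are therefore repeat measures of the lines, and the t0 comparison does not count them as new replicates. For the LacZ lines the expression values did not show the pairing by number (correlation of deviations -0.0107, given with the processing). The main fit of the direct test that follows has no term for the line and takes its 10 libraries as independent. Only its alternative, with the cell line as a block, treats them as repeat measures. A direct test of the difference between the labels, (NLS t48 minus LacZ t48) minus (NLS t0 minus LacZ t0), called 2916 of 12159 genes (24%), with 6.74% called at 2-fold or more, and 5000 genes with the cell line as a block. Without line 10 it called 1049 genes, without line 12 it called 1309 and without line 6 it called 1658.

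Several of the largest differences were called at both labels. Col4a1 had a log2 fold change of 9.21 at t48 (adjusted p = 2.73e-09) and its difference between labels was not called (adjusted p = 0.594). Cadm1 had no read in the NLS lines at t48, against 32.0 and 30.3 CPM in LacZ lines 10 and 12. Nsg1 was at 75.6, 87.9 and 68.8 CPM in the NLS lines at t48 and had no read in the LacZ lines. On chromosome 18 the median log2 difference was -0.61 at t48, against -0.58 at t0 over the same genes. Chromosomes 3, 8, 11, 14 and 15 had medians of -0.03, -0.09, 0.05, 0.11 and 0.06 at t48, against -0.21, -0.23, 0.24, 0.27 and 0.19 at t0. Other chromosomes stood further from 0 at t48 than at t0, among them chromosome 1 at 0.22 and chromosome 17 at -0.16. Within the LacZ lines, t48 minus t0, chromosomes 3, 5, 8 and 12 had medians of -0.25, -0.23, -0.22 and -0.28, and within the NLS lines -0.06, -0.10, -0.08 and -0.11.

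Other differences were not the same size or direction at t48. Plxna4 was at 1.57, 0.702 and 1.41 CPM in the NLS lines at t48 and 0.273 and 0.151 CPM in the LacZ lines, higher in NLS t48 (log2 fold change 2.50, adjusted p = 0.00433) where it had been lower at t0. Tead2 was at 43.8, 42.5 and 44.6 CPM in the NLS lines at t48 and 44.2 and 42 CPM in the LacZ lines (adjusted p = 0.858), and its difference from t0 was called (difference between labels 2.72 on the log2 scale, adjusted p = 1.01e-07). Psmb8 was at 32.3, 37.2 and 35.6 CPM in the NLS lines at t48 and 55.5 and 59.6 CPM in the LacZ lines, lower in NLS t48 (log2 fold change -0.72, adjusted p = 9.82e-05). Robo1, higher in the NLS lines at both labels, was at 31.1, 34.6 and 30.4 CPM in the NLS lines at t48 and had no LacZ read there. For Psmb8 the NLS lines had 33.1 to 35.4 CPM at t0 and 32.3 to 37.2 CPM at t48, while the LacZ lines had 8.28 and 8.37 CPM at t0 and 55.5 and 59.6 CPM at t48.

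The balance of some lists also differed. Of the interferon-stimulated genes 26 were lower at t48, against 18 lower and 5 higher at t0. For MHC class I genes the t48 counts were 1 higher and 12 lower, against 7 higher and 3 lower at t0. Sterol synthesis had 24 lower members at t48 and ERK output 14, against 19 and 11 at t0. Wnt genes had 16 higher and 2 lower at t48, against 10 and 5 at t0. G2/M genes had 12 lower at t48, against 4 higher and 1 lower at t0. A difference in these counts between the labels was not tested as such, and only the differences of single genes were.

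**Figure D5:**
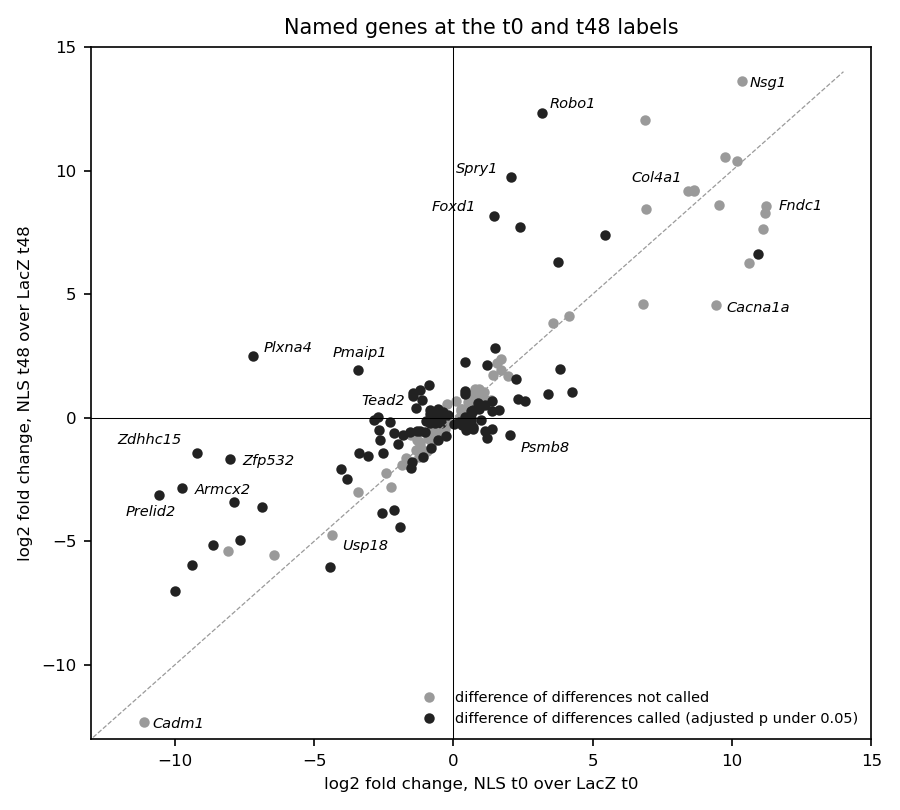
Fold changes (log2) of the genes named by the stated rules at t0 (horizontal axis, NLS t0 over LacZ t0) and at t48 (vertical axis, NLS t48 over LacZ t48), without Adcy10 and without genes not tested at t48. Dark points differ between the labels by the direct test, the dashed line marks equal values, and the largest values depend on the prior count of the fit where 1 group is near 0 reads. Plxna4 lies at -7.18 and 2.50, and Col4a1 near the line at 8.64 and 9.21.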

How the data were processed

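Per the labels' protocols, RNA came from cultures by Trizol, and the paired-end mRNA libraries keep strand. The authors deposited 1 Salmon (1.2.0) table per library, made on the GRCm38 build per the submitters' processing notes. The deposited tables give estimated counts per transcript, TPM (length-scaled transcript levels, set by the authors to a fixed library sum) and effective length, another quantity that the file headers name. TPM and effective length entered only the Adcy10 values and an alternative. Other settings of the authors' processing are not given in these sources.

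Estimated counts were summed per gene through the GENCODE vM21 annotation (115977 of 116546 transcripts matched, leaving 0.128 to 0.165% of reads out) and rounded to whole numbers. Genes at 1 CPM or more in at least 2 of the 5 libraries were fitted with TMM scaling and edgeR's robust quasi-likelihood test (edgeR 4.0.16, R 4.3.3), with Benjamini-Hochberg adjustment and a threshold of 0.05. The t0 fit held only its 5 libraries, and the t48 comparison was fitted in the same way on its own 5. The difference between the labels was fitted on all 10, with no term for the line in the main fit. The test was checked on simulated counts.

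Genes are named by rule: the 15 largest called increases and decreases (mean log2 CPM of 1 or more, groups not overlapping, no predicted genes), the 5 called genes in each direction with the largest CPM difference, up to 3 called members of each list in each direction by p, and Adcy10, Mitf, Yap1, Ccn1, Ccn2, Nr4a1, Crem and Cdkn1a. The list members Oas1a, Fasn, Axin2, Notum and Dusp6 were named after their values were seen, and some genes are not reported here. The rule, the lists and the members were chosen with earlier results of these data known. For the largest differences, a group with no read is set at a floor of 3 counts per library, and 1 to 3 reads give a ratio with a 95% counting interval. Each group has 1 library per line, so p-values measure the spread between lines, and an exact permutation test of 3 against 2 libraries cannot go below 0.2. No pair of libraries agreed within sampling noise. Equal numbers at t0 and t48 mark the same line by the labels. The deviations of such pairs from their group means correlated at 0.265, 0.0738 and 0.325 in NLS lines 16, 6 and 7. Pairs of NLS libraries with unequal numbers gave -0.303 to 0.057. Both LacZ lines gave -0.0107, which is 1 value, since 2 libraries deviate from their mean by equal and opposite amounts. Alternatives were other scalings, DESeq2 1.42.0, limma 3.58.1, other filters, a length offset, all 13 libraries, a cell line block, leaving out each library, and leaving out 6 chromosomes, the last chosen after seeing the data.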

Additional observations from a re-analysis of the deposited data

Results flagged for a closer look

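For 14 of the 30 genes named by size, the NLS minus LacZ difference itself differed between t48 and t0 by the direct test in edgeR, and 13 of these 14 were lower in the NLS lines at t0. With the cell line as a block 18 of the 30 passed. Over all genes the direct test without the block called 24%. The 30 genes were chosen for the size of their t0 difference, and the test uses the same t0 libraries. A smaller difference at t48 is therefore favoured by the choice, and these counts and their direction cannot be read as a result. The values below are differences on the log2 scale, t48 minus t0, and for genes with a group near 0 reads they depend on the prior count of the fit.

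The exception was Cacna1c, a calcium channel gene, at -4.26, which was at 15.4, 17.7 and 15.5 CPM in the NLS lines at t48 and 0.109 and 0.202 CPM in the LacZ lines, and so was higher in the NLS lines at both labels. Armcx2 had a difference of 6.91, with 13, 12.8 and 12.1 CPM in the NLS lines at t48 and 89.5 and 90.7 CPM in the LacZ lines. Prelid2 had a difference of 7.43, with 5.83, 4.87 and 4.54 CPM in the NLS lines at t48 and 46.4 and 42.7 CPM in the LacZ lines. Zfp532 had a difference of 6.36, with 6.06, 7.37 and 6.11 CPM in the NLS lines at t48 and 20 and 21.3 CPM in the LacZ lines. These 3 genes stayed below the LacZ lines at t48 at a higher NLS level than at t0.

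Plxna4, with a difference of 9.68, was lower in the NLS lines at t0 and higher at t48. Hs6st2, which sulfates heparan, had a difference of 15.17, with 1.02, 0.658 and 0.783 CPM in the NLS lines at t48 and no LacZ read. Cdh6 had a difference of 8.18, with 0.648, 0.351 and 0.157 CPM of Cdh6 in the NLS lines at t48 and 0.0546 and 0.202 CPM in the LacZ lines. Hs6st2 and Cdh6 were too low at t48 to be tested there alone.

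The remaining differences were 7.80 for Zdhhc15, 4.46 for Soga3, 3.49 for Cdh18, 3.43 for Arap3, 3.25 for Trim68, 3.01 for Gpr149 and 2.71 for Grid1.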

How the results depend on the processing

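No paired analysis was possible because the NLS and LacZ lines share no number, so the t0 comparison has no fit with the replicate block of its own. All 13 libraries with the cell line as a random block (limma-voom) gave 5570 t0 calls, against 4740. Other scalings, tools, filters and the length offset gave 4145 to 5253 t0 calls, and a fit of all 13 libraries gave 5489. Leaving out 1 library gave 2580 to 5694 t0 calls, 1226 to 2821 higher, 1354 to 2873 lower and 1019 to 1204 at 2-fold or more, the lowest without LacZ line 10, where 2851 is the count without LacZ line 12. Without the genes of chromosomes 3, 8, 11, 14, 15 and 18 there were 2706 calls, 1286 higher, 1420 lower and 776 at 2-fold or more, with fewer genes tested by construction. The difference between the labels gave 2916 calls, and 5000 with the cell line as a replicate block, 2504 higher and 2496 lower. Leaving out both libraries of 1 line gave 1049 to 3378 such calls, 634 to 1703 higher, 415 to 1675 lower and 524 to 846 at 2-fold or more, with 1309 (713 higher, 596 lower) without line 12, 1658 (924 higher, 734 lower) without line 6 and 1049 without line 10. The cause of these moves was not tested. No named gene changed direction under an alternative while called in the main fit or in that alternative. Changes of direction in genes called in neither were not counted. Of the t0 values of named genes under an alternative, 106 fell short of the threshold, most of them without a LacZ line. With 2 LacZ lines, small differences and genes under about 1 CPM are the least certain.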

Other observations

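Patterning genes differed in both directions, with 7 of 21 tested Hox and patterning factors higher in the NLS lines and 7 lower at t0. Foxd1, a forkhead factor of stromal progenitors, was at 11.3, 8.06 and 12.4 CPM in NLS lines 6, 7 and 16 and 4.48 and 3.24 CPM in the LacZ lines (log2 fold change 1.46, SE 0.23, adjusted p = 0.00133). At t48 Foxd1 had 0.0546 CPM in LacZ line 10 and no read in LacZ line 12. Hoxb8 was at 2.82, 3.28 and 2.76 CPM in the NLS lines and 8.37 and 6.74 CPM in the LacZ lines (log2 fold change -1.35, SE 0.19, adjusted p = 0.00058). The higher members number 3 without LacZ line 10 or LacZ line 12 and 4 without NLS line 6, and the lower ones 3 without LacZ line 12 or outside the 6 chromosomes.

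Among melanoma drivers and tumour suppressors 2 of 15 tested were higher and 3 lower, with 1 higher outside the 6 chromosomes. Cdkn2b, a CDK inhibitor, was at 66.7, 61.1 and 65.1 CPM in the NLS lines and 101 and 102 CPM in the LacZ lines (log2 fold change -0.65, SE 0.07, adjusted p = 0.00016). Peg10, an imprinted gene that derives from a retrotransposon, was at 109, 112 and 106 CPM in the NLS lines and 283 and 250 CPM in the LacZ lines (log2 fold change -1.29, SE 0.08, adjusted p = 3.66e-06), and its imprinted neighbour Sgce was lower too (log2 fold change -1.13, SE 0.09, adjusted p = 1.87e-05).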
